A study of Mus musculus with 12 samples.

Results

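The 37 genes described here encode the Notch pathway of mouse cells, from the receptors and their ligands to the nuclear complex and its targets. They were listed by name, out of 21900 protein-coding genes of the RefSeq GRCm38.p6 annotation. A gene counted as having a peak of N6-methyladenosine (m6A), a methyl mark on messenger RNA, when a peak of the deposited lists overlapped its span by at least 1 base on its own strand. Of 118075 peaks in 6 lists, 255 fell in these genes.

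Notch receptors sit in the cell membrane and bind Delta-like or Jagged ligands on neighbouring cells. Binding lets metalloproteases and then gamma-secretase cut the receptor, and the freed intracellular domain enters the nucleus, where it joins Rbpj and a Mastermind-like protein to switch on genes of the Hes and Hey families. In the nervous system the pathway is known for keeping neural stem cells undifferentiated, and in the testis it has been studied in Sertoli cells and germ cells. The m6A mark is placed mainly near stop codons and in long exons, and proteins that read it can alter how long an mRNA lasts or how much it is translated.

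The study compared neural stem cell-like cells (iNSCs) with the cultured mouse spermatogonial stem cells (SSCs) from which they were derived, with 3 m6A immunoprecipitation (IP) libraries of each. The iNSC cultures had been plated on laminin, kept for 24 h in SSC medium with 1 µM retinoic acid, and then moved to an N2 and B27 medium with 10 µM SB431542, an inhibitor of TGF-beta receptor kinases, and 20 ng/mL bFGF. The SSC cultures grew on STO feeders, a mouse embryonic fibroblast line, with LIF, EGF, 10 ng/mL bFGF and 20 ng/mL GDNF. Poly(A) RNA was cut to fragments of about 200 nt before pull-down, and the 6 input libraries of the 12 samples were not analysed here. The labels give no strain, age or sex and do not say whether replicates were separate cultures. A p-value here therefore concerns these libraries only, and the spread between them may be technical. With 3 libraries against 3, the exact permutation test used here gives 0.1 for any complete separation, whatever its size. Feeder RNA may be present in SSC libraries, and the iNSC cultures were not described as sorted. The cell type field names the opposite cell type in 12 of 12 samples, and the groups here follow the titles and source names.

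The lists held 13913, 16002 and 16060 peaks in the iNSC libraries and 27597, 19728 and 24775 in the SSC libraries. The iNSC peaks were wider, with medians of 433, 397 and 368 bases against 193, 205 and 202 bases in the SSC lists. Read counts are not part of these lists, so depth is unknown. Among 10 germ cell markers, 1, 1 and 2 had a peak in the iNSC lists and 7, 5 and 7 in the SSC lists, and Ddx4, Zbtb16, Sall4, Id4 and Kit had one in all SSC lists and no iNSC list. Of the same 10, Gfra1 had a peak in 1 iNSC list and no SSC list, and Etv5 had one in the 3 iNSC lists and in some but not all SSC lists, with more covered bases in every iNSC list. Among 9 neural stem cell markers the counts were 2, 2 and 2 in the iNSC lists and 6, 5 and 5 in the SSC lists. Pax6 had a peak in the 3 iNSC lists alone, Nes in all 6 lists, Sox1 and Fabp7 in none, and Sox2, Msi1, Vim and Cdh2 in the 3 SSC lists alone, so most of these neural markers did not go with the name of the iNSC group. Of 8 fibroblast markers, 3, 2 and 3 had a peak in iNSC lists and 4, 2 and 7 in SSC lists, with summed covered bases of 5659, 5391 and 7388 against 3579, 903 and 4223, and Postn had none. A peak needs both transcript and methylation, and without the inputs these cannot be told apart, nor can fewer cells of a type and less RNA per cell.

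A few Notch genes had a peak that touched the start of a RefSeq transcript, though the share of Notch peaks at gene starts, given further on, was not above that of all genes. RefSeq windows, 250 bases before to 50 bases after a transcript start on build GRCm38.p6, matched 29 of the 37 genes by symbol. The 4 windows printed here are those that a peak with the same edges touched in at least 3 lists, and they are shown because they place those peaks relative to the start. Each runs 5′ to 3′ on the gene's strand, and capitals mark the bases inside the peak.
Jag1 chr2:137116471-137116770 (- strand): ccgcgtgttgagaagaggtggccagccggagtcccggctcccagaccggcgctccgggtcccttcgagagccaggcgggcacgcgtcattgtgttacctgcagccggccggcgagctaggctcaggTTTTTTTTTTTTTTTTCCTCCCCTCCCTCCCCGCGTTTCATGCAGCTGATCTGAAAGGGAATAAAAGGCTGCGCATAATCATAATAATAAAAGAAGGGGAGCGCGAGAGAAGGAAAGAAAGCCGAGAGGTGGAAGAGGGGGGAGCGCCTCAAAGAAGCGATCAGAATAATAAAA
Rbpj chr5:53590236-53590535 (+ strand): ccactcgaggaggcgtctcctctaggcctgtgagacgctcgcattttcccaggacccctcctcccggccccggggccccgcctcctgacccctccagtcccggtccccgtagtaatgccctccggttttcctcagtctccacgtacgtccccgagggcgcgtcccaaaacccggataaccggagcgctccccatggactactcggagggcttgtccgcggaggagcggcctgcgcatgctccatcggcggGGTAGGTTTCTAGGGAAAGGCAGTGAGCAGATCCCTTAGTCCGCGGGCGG
Maml3 chr3:52104957-52105256 (- strand): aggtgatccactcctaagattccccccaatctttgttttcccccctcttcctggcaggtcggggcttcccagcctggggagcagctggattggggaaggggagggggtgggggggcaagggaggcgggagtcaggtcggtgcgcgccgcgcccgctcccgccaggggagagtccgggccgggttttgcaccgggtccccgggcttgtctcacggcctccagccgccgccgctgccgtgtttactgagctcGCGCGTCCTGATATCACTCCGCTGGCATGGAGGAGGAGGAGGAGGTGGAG
Adam10 chr9:70678732-70679031 (+ strand): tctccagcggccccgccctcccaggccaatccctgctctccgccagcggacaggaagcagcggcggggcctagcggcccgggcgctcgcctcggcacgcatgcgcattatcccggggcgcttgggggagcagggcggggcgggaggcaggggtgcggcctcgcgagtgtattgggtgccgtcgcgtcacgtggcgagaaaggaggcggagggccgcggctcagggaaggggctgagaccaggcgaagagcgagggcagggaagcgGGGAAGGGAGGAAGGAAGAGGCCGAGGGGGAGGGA

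The Jag1 peak was listed with the same edges, chr2:137116177-137116644, in SSC lists 1, 2 and 3 and in no iNSC list, and it covered 174 of the 300 bases of the window, 124 of them upstream of the RefSeq start. The Maml3 peak, chr3:52103679-52105006, was present with the same edges in iNSC lists 1, 2 and 3 and in SSC list 2. In the direction of transcription it began exactly at the start of this transcript, 313 bases inside the gene span. The Rbpj peak, chr5:53590486-53590724, began exactly at the start of an internal transcript, 34707 bases into the gene span, in iNSC list 3 and in SSC lists 1, 2 and 3, whereas iNSC lists 1 and 2 had the neighbouring entry chr5:53590215-53590486, which shares 1 base with it. The Adam10 peak, chr9:70678997-70679259, was listed in iNSC list 3 and in SSC lists 2 and 3, with 35 bases in the window. The core of the m6A consensus, GGAC, was searched on the gene strand, and its reverse complement GTCC stands for the other strand. GGAC occurred 0 times in the Jag1 and Maml3 windows, 2 times in the Rbpj window and 1 time in the Adam10 window, each outside the peak. GTCC occurred 2 times in the Jag1 window, 6 times in the Rbpj window, 3 times in the Maml3 window and 0 times in the Adam10 window, and 1 occurrence each of Rbpj and Maml3 lay inside the peak. Over all 32851 windows of this length, 65.6% held GGAC and 66.1% held GTCC, so these matches describe the windows only.

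Across the pathway, 18, 20 and 20 of the 37 genes had a peak in the iNSC lists and 26, 17 and 24 in the SSC lists. The iNSC shares were 48.6%, 54.1% and 54.1%, against a background over all protein-coding genes of 30.3%, 32.8% and 32.5% in the same lists. The SSC shares were 70.3%, 45.9% and 64.9%, against 46.0%, 37.9% and 46.1%. The 2 groups of lists overlapped for the Notch genes, because SSC list 2 held the fewest. The means were 52.3% ± 3.18 in iNSC lists and 60.4% ± 12.8 in SSC lists (SD, n = 3 each), a difference of -8.1 percentage points that is smaller than the SSC spread, beside -11.5 points for all genes. It was -15.32 points without SSC replicate 2, -3.153 without SSC replicate 1 and -5.856 without SSC replicate 3. The sign differed with the peaks that were kept. When each list was cut to its 13913 best-scoring peaks, 49.5% ± 1.62 of the Notch genes had a peak in iNSC lists and 38.7% ± 3.12 in SSC lists, a difference of 10.8 points, while all genes stood at 30.3% ± 0.252 and 30.5% ± 1.01 (SD, n = 3 each). With the better-scoring 50% of peaks per list, the Notch share was 36.9% ± 1.56 in iNSC lists and 32.4% ± 7.14 in SSC lists (SD, n = 3 each), whereas all genes stood at 21.2% and 27.3%, a difference of -6.1 points.

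**Figure D1:**
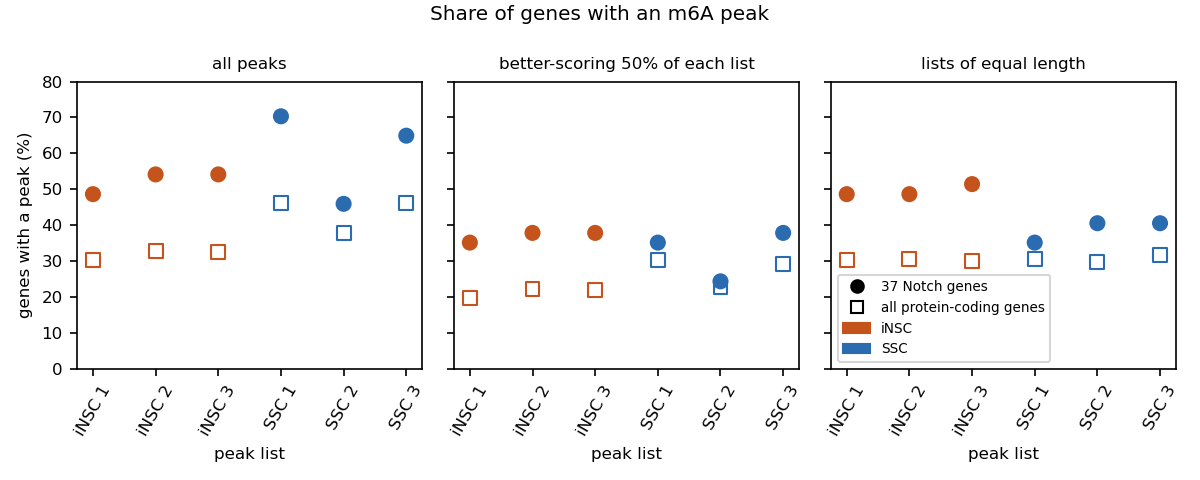
Percent of genes with at least 1 m6A peak (vertical axis) in each peak list (horizontal axis), for the 37 Notch genes (filled circles) and all protein-coding genes (open squares), with all peaks, the better-scoring 50% of each list, or lists of equal length. With all peaks the Notch circles overlap between iNSC and SSC lists, and at equal length the iNSC circles (mean 49.5%) lie above the SSC circles (mean 38.7%).

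A peak was found in at least 1 list in 33 of the 37 genes, against 61.4% of all protein-coding genes. Dll3, Aph1a, Lfng and Hes5 had none. No Notch gene was present in the 3 iNSC lists and absent from the SSC lists, a pattern that 2.33% of all genes with a peak showed. Jag1, Mib1 and Numb were present in all SSC lists but in no iNSC list, 9.09% of the 33, and the background for this pattern was 11.1%. Adam10, Adam17, Psen2, Rbpj, Maml1, Maml2, Maml3, Itch, Dtx4 and Hey1 had a peak in all 6 lists, 30.3% of the 33 against a background of 30.0%. All 3 shares are close to the background.

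Presence calls changed when weak peaks were removed. In lists of equal length, Notch2, Notch3, Ncstn and Rfng were in the 3 iNSC lists and no SSC list, which is 4 genes against a background of 7.13% of the genes that still had a peak. None was then in the SSC lists alone (background 6.79%), and Adam17, Rbpj and Maml1 were in all 6 (background 26.3%). In the better-scoring 50%, Notch2, Ncstn and Rfng were in the iNSC lists alone (background 4.59%), none in the SSC lists alone (background 9.88%), and Rbpj and Maml1 in all 6 (background 21.1%). The Notch genes that still had a peak after each cut were not counted, so these numbers of genes are not shares to read against the background.

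To use the extent of peaks as well as their presence, the bases covered by the peaks of each gene were counted per list, over the whole length of each peak. Among the 37 genes this included bases outside the gene span only for Jag1, 124 in each SSC list. In 11 genes every iNSC list had more covered bases than any SSC list: Notch2, Notch3, Adam17, Ncstn, Rfng, Rbpj, Maml1, Maml2, Maml3, Numbl and Dtx2. They are 33.3% of the 33, and the same held for 17.9% of all 13452 genes with a peak. In 3 genes, Jag1, Mib1 and Numb, every SSC list had more, 9.09% against a background of 15.3%. In the other 19 genes with a peak the groups overlapped. At equal list length 11 genes, 10 of them the same, had more covered bases in every iNSC list (background 27.6%) and 0 in every SSC list (background 8.98%), and in the better-scoring 50% the counts were 9 (background 18.0%) and 0 (background 13.4%). Here too the Notch genes still with a peak were not counted, so no share is given. With 3 lists against 3, the two-sided exact permutation test cannot give a p below 0.1, and each of these 14 genes has that p, with 0.302 after Benjamini-Hochberg adjustment over the 13452 genes. No gene of the 13452 had a p under 0.05 before or after adjustment, so the groups are described below by their values. The covered bases of the 37 genes together were 36810, 38648 and 38270 in iNSC lists and 29132, 16571 and 30193 in SSC lists. The sums did not overlap, and neither did the sums over all genes. Those were 11341934, 11996792 and 11869330 in iNSC lists and 10673611, 8695982 and 9980985 in SSC lists. The ratio of means was 1.498 for the Notch genes beside 1.2 over all genes. For the Notch genes the difference of 12610 bases fell to 8247 without SSC replicate 2. Median peak width in these genes was 744 ± 48 bases in iNSC lists and 281.8 ± 23.7 bases in SSC lists (SD, n = 3 each). Over all genes it was 409.7 ± 32.7 and 199.3 ± 5.69 bases (SD, n = 3 each), so peaks were wider in iNSC lists there too.

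**Figure D2:**
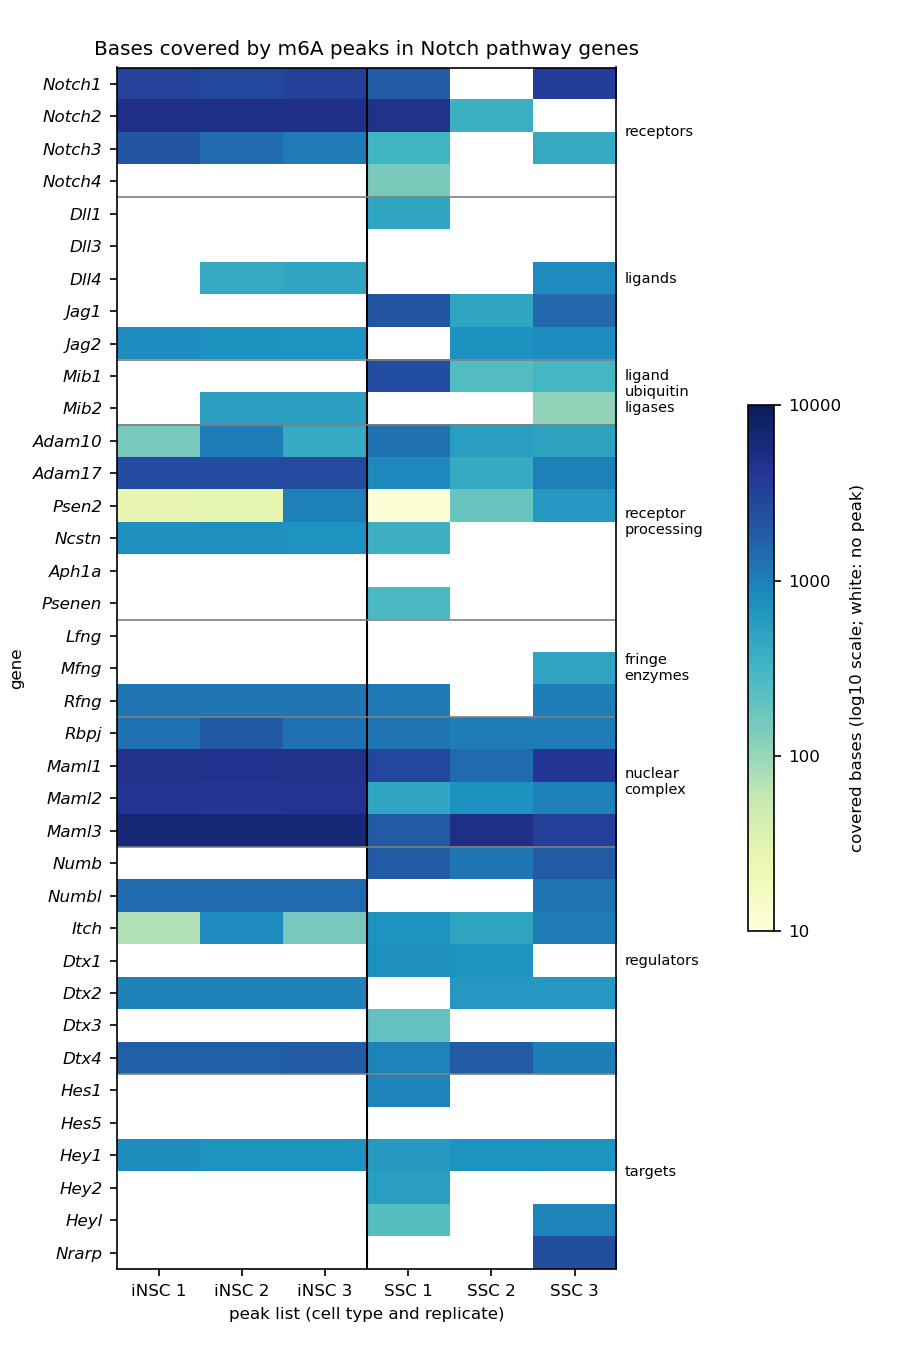
Bases covered by m6A peaks (colour, log10 scale, white for no peak) in each of the 37 Notch genes (rows, grouped by role) and each peak list (columns, 3 iNSC then 3 SSC). The 4 nuclear complex genes are covered in all 6 lists, whereas most of the target genes are white in the 3 iNSC columns.

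The receptors Notch1, Notch2 and Notch3 had peaks in all iNSC lists and in some SSC lists, mostly at the gene end. Together the 4 receptor genes had 9998, 8945 and 9055 covered bases in iNSC lists, against 6996, 354 and 3864 in SSC lists. The iNSC sums were all higher and close to each other, and the SSC sums were far apart.

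Notch2 (chr3:98013538-98150367, + strand) had 4821, 4821 and 4754 covered bases in iNSC lists and 4688, 354 and 0 in SSC lists. The lowest iNSC value lay only just above SSC list 1, and SSC lists 2 and 3 were far below (means 4799 ± 38.7 and 1681 ± 2610, SD, n = 3 each, exact permutation p = 0.1). The main peak ran over the last 4315 bases of the gene, chr3:98146053-98150367, in iNSC lists 1 and 2, and was 4248 bases long in iNSC list 3 and 4182 bases long in SSC list 1. Its score was 3100 in all 3 iNSC lists, a value that many strong peaks share, while the same peak stood at percentile 18.94 of its own list in SSC list 1. Scores are the authors' values and are used mainly to rank peaks within a list. Peaks reaching 3100 and the Hey1 scores are also given for each list, as description only, because the score has no stated unit. The lists differ in length and score make-up, so a percentile says where a peak stood in its list, and different percentiles between lists show no change.

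Notch3 (chr17:32120820-32166896, - strand) had 2102, 1380 and 1088 covered bases in iNSC lists, against 314, 0 and 421 in SSC lists. The groups did not overlap, and the ratio of means was 6.22 (exact permutation p = 0.1). A peak of 148 bases inside the gene, chr17:32132202-32132349, was listed with identical edges in all 3 iNSC lists and in no SSC list, at percentiles 30.87, 39.66 and 26.02. SSC list 2 had 1 entry in the Notch3 span on the opposite strand, which was left out, and with both strands counted Notch3 had a peak in all 6 lists.

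Notch1 (chr2:26457902-26503822, - strand) had 3075, 2744 and 3213 covered bases in iNSC lists and 1847, 0 and 3443 in SSC lists. The groups overlapped, since SSC list 3 had the highest value of all and SSC list 2 none (exact permutation p = 0.4). Where present, the peak started at the same base and covered up to the last 3075 bases of the gene, and its percentiles were 65.51, 78.21 and 81.64 in iNSC lists against 76.11 and 74.49 in SSC lists 1 and 3. Notch4 had 147 covered bases in SSC list 1 and no peak elsewhere.

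**Figure D3:**
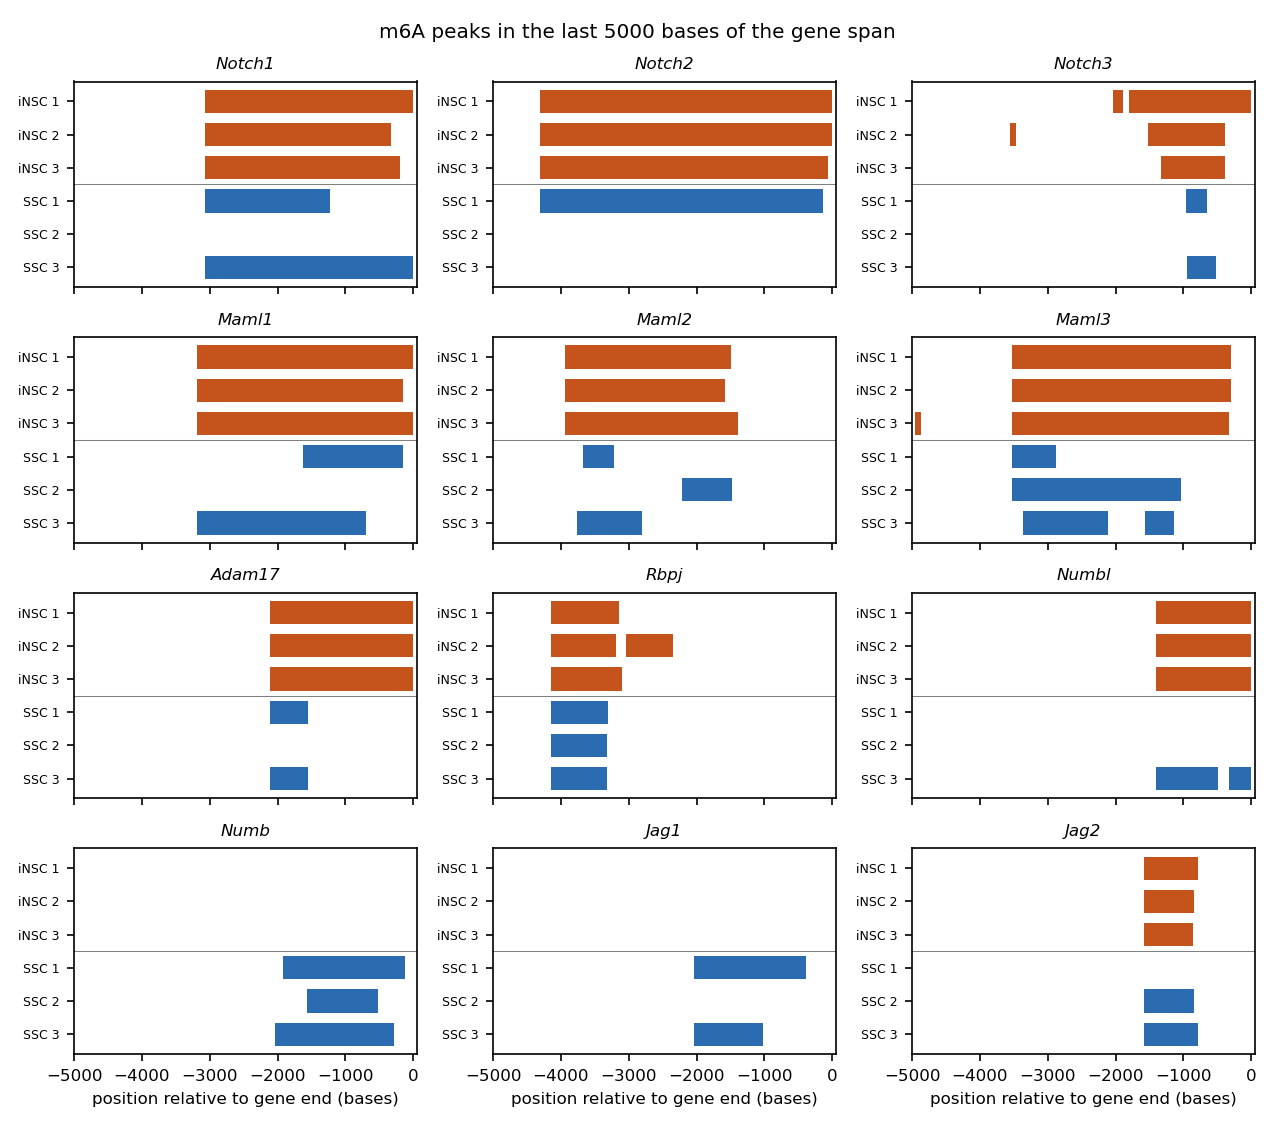
Peaks of 12 Notch genes drawn as bars in the last 5000 bases of each gene span (horizontal axis, bases relative to the gene end at 0, in the direction of transcription), with iNSC lists in the 3 upper rows and SSC lists in the 3 lower rows of each panel. The Notch2 bar spans 4315 bases in 2 iNSC lists, the Maml2 and Adam17 bars are longer in iNSC than in SSC lists, and Numb and Jag1 have bars in SSC lists alone.

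The ligands gave the opposite picture for Jag1 and no clear one for the rest. Jag1 (chr2:137081451-137116520, - strand), which encodes Jagged 1, had 0, 0 and 0 covered bases in iNSC lists and 2108, 468 and 1484 in SSC lists. All SSC values were higher, with a mean of 1353 ± 828 bases (SD, n = 3, exact permutation p = 0.1). In SSC lists 1 and 3 the gene had a second peak near its end, 1640 and 1016 bases long at percentiles 92.23 and 63.9, while the start peak was weaker at 43.09, 25.88 and 21.82 in SSC lists 1, 2 and 3. The groups overlapped for Jag1 once the lists were cut to their better-scoring 50% or to equal length.

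Jag2 (chr12:112907803-112929812, - strand) had 796, 742 and 721 covered bases in iNSC lists and 0, 738 and 796 in SSC lists. Its single peak began at the same base in the 5 lists that had it, and the groups overlapped (exact permutation p = 0.7). The Delta-like ligand gene Dll4 had 0, 421 and 459 covered bases in iNSC lists and 0, 0 and 822 in SSC lists. Dll1 had 473 in SSC list 1 alone, and Dll3 had no peak in any list. Jag1, Notch4, Dll4 and Hey2 are genes that endothelial cells are known to use, and 0, 0 and 0 of 6 endothelial markers had a peak in the iNSC lists against 4, 3 and 4 in the SSC lists, with summed covered bases of 0, 0 and 0 against 2472, 2207 and 2612. Pecam1, Cdh5 and Kdr were in all 3 SSC lists and no iNSC list (background 11.1% of genes with a peak), Tek in some SSC lists, and Emcn and Tie1 in none. The labels name no such cells, and whether any were present or added to the values of Jag1, Notch4, Dll4 and Hey2 was not tested.

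Mib1 and Mib2 encode ubiquitin ligases that let the signal-sending cell take up its ligand. Mib1 had 0, 0 and 0 covered bases in iNSC lists and 2487, 242 and 306 in SSC lists. All SSC values were higher, although SSC list 1 had 5 peaks and SSC lists 2 and 3 had 2 each, and no position was shared by all 3 lists (exact permutation p = 0.1). Mib2 had 0, 524 and 524 covered bases in iNSC lists and 0, 0 and 106 in SSC lists, and its iNSC entries also lie in Mmp23 on the same strand, so their gene is uncertain.

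Among the enzymes that cut the receptor, Adam17 and Ncstn had the longer coverage in iNSC lists and the other genes overlapped. Adam17 (chr12:21323509-21373632, - strand), which encodes a membrane metalloprotease, had 2530, 2530 and 2530 covered bases in iNSC lists and 846, 412 and 984 in SSC lists. Each iNSC value was higher, 3.39 times by the means, and the same 4 peaks made up each iNSC value (exact permutation p = 0.1). The last of them covered 2118 bases up to the gene end in iNSC lists and was shorter in SSC lists 1 and 3 and missing in SSC list 2. The other 3, at chr12:21345621-21345710, chr12:21347297-21347449 and chr12:21349785-21349953, were present in all 6 lists, the first 2 with identical edges in each. Adam10, the related protease that makes the first cut after ligand binding, had 151, 1043 and 414 covered bases in iNSC lists and 1278, 548 and 494 in SSC lists, which overlap (exact permutation p = 0.5).

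Ncstn (chr1:172066013-172082789, - strand) encodes nicastrin, the gamma-secretase subunit that receives substrates. It had 767, 764 and 723 covered bases in iNSC lists and 350, 0 and 0 in SSC lists. All iNSC values were higher, 6.44 times by the means (exact permutation p = 0.1), and the peak lay at the gene end in each of these lists, at percentiles 72.66, 75.11 and 72.5 in iNSC lists and 37.11 in SSC list 1. SSC list 1 also had an entry on the opposite strand that lies in Copa as well, and with both strands counted the groups overlapped, although not when only bases inside the gene span were counted, which gave 611 in SSC list 1. Psen2, a catalytic subunit of the same complex, had 27, 29 and 1005 covered bases in iNSC lists and 11, 180 and 625 in SSC lists, which overlap. Psenen had 269 in SSC list 1 alone, with a pseudogene that may share its reads, and Aph1a had none.

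The fringe enzymes add sugars to the receptors and so change which ligands they prefer. Rfng (chr11:120780745-120784251, - strand) had 1159, 1159 and 1159 covered bases in iNSC lists and 1100, 0 and 1032 in SSC lists. The groups did not overlap, but 2 of the SSC lists lay close to the iNSC value (exact permutation p = 0.1). The peak stood at percentiles 67.45, 72.78 and 67.44 in iNSC lists and 21.57 and 1.671 in SSC lists 1 and 3. Mfng had 485 covered bases in SSC list 3 alone, and Lfng had no peak in any list.

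**Figure D4:**
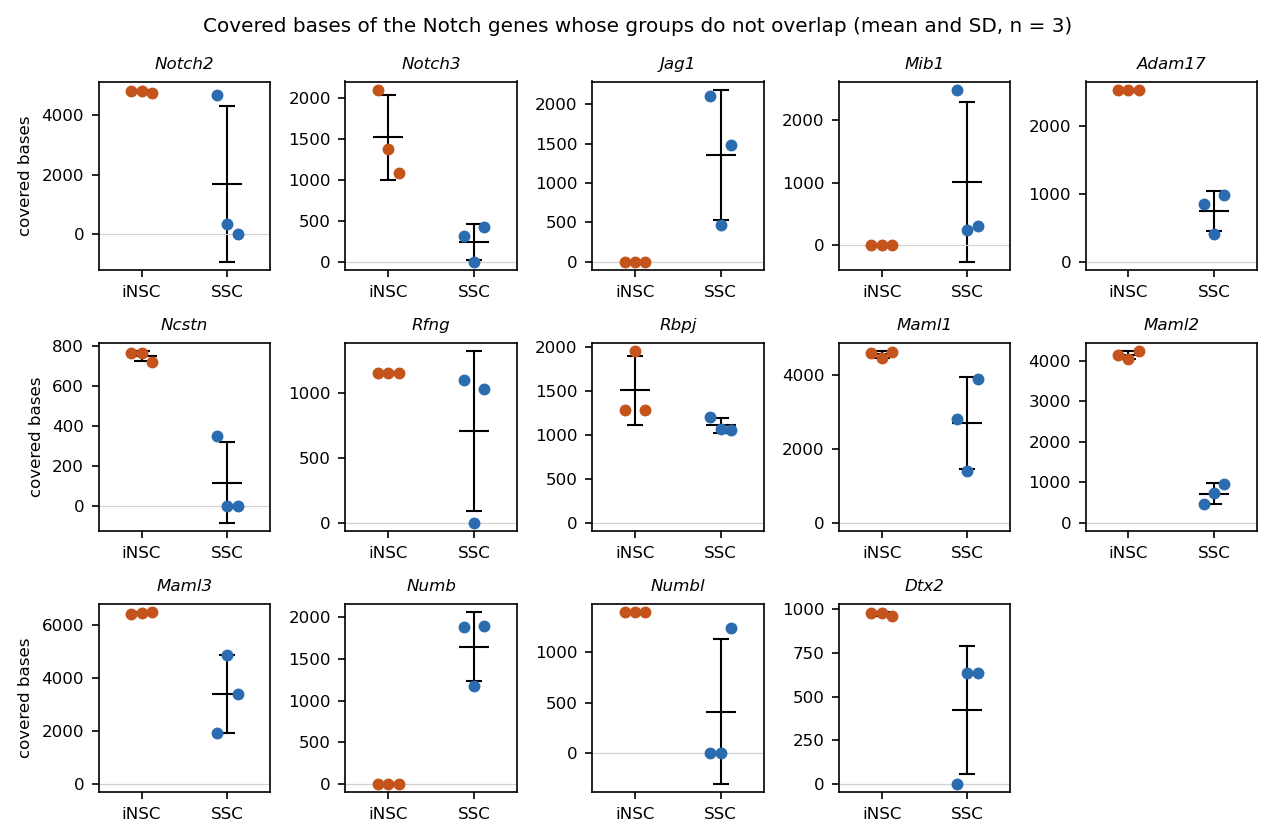
Covered bases per list (vertical axes, points) for the 14 Notch genes whose iNSC (left) and SSC (right) values do not overlap, with the mean and SD of n = 3 lists. Notch2, Adam17 and the 3 Maml genes lie higher in iNSC lists, and Jag1, Mib1 and Numb are at 0 in the 3 iNSC lists.

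The nuclear complex was covered in every list and had more covered bases in iNSC lists for each of its 4 genes. Their sum was 16437, 16881 and 16609 bases in iNSC lists and 6378, 8079 and 9302 in SSC lists, which do not overlap. Among the genes with a peak in all 6 lists, 28.4% of all genes had more covered bases in every iNSC list, and 5 of the 10 Notch genes did, namely Adam17, Rbpj, Maml1, Maml2 and Maml3. The reverse held for 8.21% of such genes and for none of the 10. The Mastermind-like proteins are coactivators that lock onto Rbpj and the receptor fragment.

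Maml2 (chr9:13296561-13709533, + strand) had 4133, 4049 and 4237 covered bases in iNSC lists and 455, 747 and 960 in SSC lists. The iNSC values lay well above, 5.74 times by the means (4140 ± 94.2 and 720.7 ± 254, SD, n = 3 each, exact permutation p = 0.1). A peak of 1687 bases, chr9:13619989-13621675, was present in all 3 iNSC lists at percentiles 77.32, 81.13 and 91.77 and in no SSC list. The peak near the gene end, inside chr9:13705592-13708141, was present in all 6 lists, with entries of over 2000 bases in iNSC lists and of 455, 747 and 960 bases at different positions in SSC lists.

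Maml3 (chr3:51687320-52105319, - strand) had 6423, 6429 and 6480 covered bases in iNSC lists and 1911, 4857 and 3386 in SSC lists. No SSC list reached the iNSC values, and the ratio of means was 1.904 (exact permutation p = 0.1). Regions near the gene end (chr3:51687611-51690854) and inside it (chr3:51855499-51857076) were found in all 6 lists, and a weaker one of 279 bases (chr3:51697565-51697843) in the 3 iNSC lists alone. Maml1 (chr11:50255634-50293131, - strand) had 4605, 4454 and 4611 covered bases in iNSC lists and 2807, 1414 and 3901 in SSC lists. All iNSC values were again higher, 1.68 times by the means (exact permutation p = 0.1), and its internal region of 1416 bases, chr11:50265595-50267010, was shared by all 6 lists.

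Rbpj (chr5:53555779-53657445, + strand), the DNA-binding partner of the receptor fragment, had 1276, 1949 and 1281 covered bases in iNSC lists and 1205, 1061 and 1055 in SSC lists. The gap between the groups was narrow, with a ratio of means of 1.36 (exact permutation p = 0.1). Its peak at chr5:53653305-53654346 was found in all 6 lists with a score of 3100 in the 3 iNSC lists, and in SSC list 2 it was the peak at the transcript start that had this score. Rbpj has pseudogenes elsewhere in the genome with which reads may be shared.

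Notch gene peaks with a score of 3100 or more were almost all in iNSC lists. The score is exactly 3100 for 982 to 2735 peaks per list and higher for 47 to 86. Notch2, Rbpj, Maml1, Maml2, Maml3 and Dtx4 reached 3100 in all 3 iNSC lists and Jag2 in iNSC list 2, while Rbpj alone reached it in 1 SSC list. This score was reached by 21.2% ± 2.82 of Notch peaks in iNSC lists and 0.98% ± 1.7 in SSC lists (SD, n = 3 each), beside 16.2% and 5.22% of the peaks in all genes. Among the 10 genes with a peak in all 6 lists, the percentile of the best peak was higher in every iNSC list for Maml1, Maml2, Maml3 and Dtx4, against 19.1% of all such genes, and higher in every SSC list for Itch and Hey1, against 31.0%. Peaks at exactly 3100 are tied, so their percentile depends on how many peaks of that list have this score, while Jag2 and Maml3 had a peak above 3100 in iNSC list 2. Maml1 stood at percentiles 92.32, 90.92 and 91.77 in iNSC lists and 70.97, 74.92 and 72.81 in SSC lists.

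**Figure D5:**
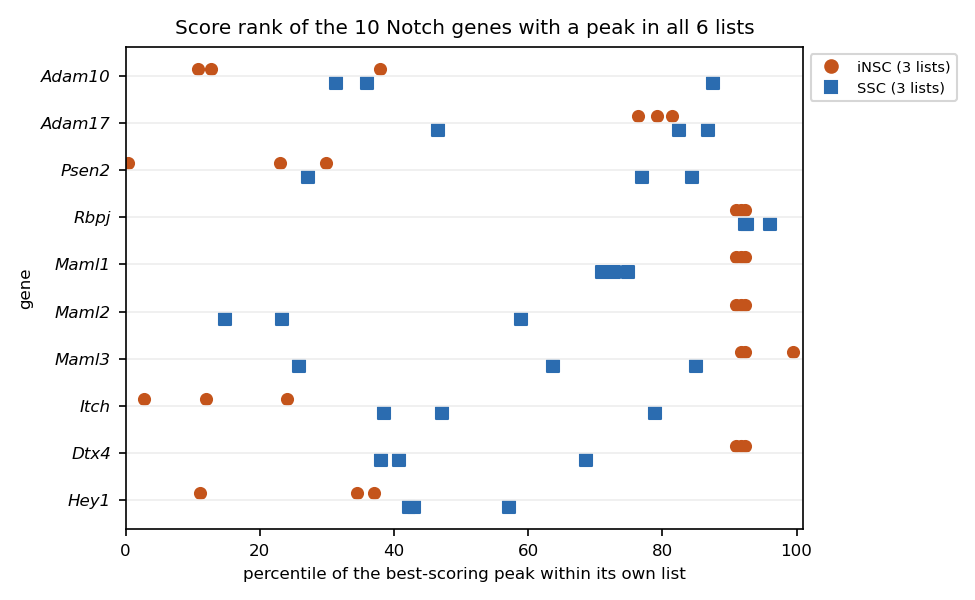
Percentile of the best-scoring peak of each gene within its own list (horizontal axis, 100 is best) for the 10 Notch genes (vertical axis) with a peak in all 6 lists, iNSC lists as circles and SSC lists as squares. Maml1, Maml2, Maml3 and Dtx4 have their iNSC circles right of all SSC squares, and Itch and Hey1 have them left. The lists differ in length, so a difference in percentile shows no change.

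The regulators were split between the related genes Numb and Numbl. Numb (chr12:83794034-83921942, - strand) encodes an adaptor that removes Notch receptors from the surface and is shared unequally when progenitors divide. It had 0, 0 and 0 covered bases in iNSC lists and 1887, 1172 and 1892 in SSC lists. All SSC values were higher, with a mean of 1650 ± 414 bases (SD, n = 3, exact permutation p = 0.1), and the peak near the gene end, inside chr12:83794153-83796069, was found in the 3 SSC lists at percentiles 56.0, 29.77 and 38.51. Numbl (chr7:27258438-27282150, + strand), its paralog, had 1397, 1397 and 1397 covered bases in iNSC lists and 0, 0 and 1238 in SSC lists. All iNSC values were higher (exact permutation p = 0.1), with 1 peak over the last 1397 bases of the gene at percentiles 70.19, 55.82 and 79.84.

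Itch, a ubiquitin ligase that marks the receptor for breakdown, had 73, 827 and 150 covered bases in iNSC lists and 729, 472 and 1069 in SSC lists, which overlap (exact permutation p = 0.3). Its number of peaks did not overlap, with 1, 1 and 2 in iNSC lists and 7, 5 and 7 in SSC lists, and chr2:155168684-155168825 and chr2:155206293-155206381 were found in the 3 SSC lists alone. By peak number, Notch3, Maml2 and Dtx2 were higher in every iNSC list, against 4.51% of all genes, and Jag1, Mib1, Adam10, Numb and Itch in every SSC list, against 16.2%.

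The Deltex genes encode ubiquitin ligases that act on Notch receptors. Dtx2 (chr5:135994800-136032881, + strand) had 980, 980 and 960 covered bases in iNSC lists and 0, 637 and 637 in SSC lists. All iNSC values were higher, 2.29 times by the means (exact permutation p = 0.1). A peak of 637 bases, chr5:136012011-136012647, had the same edges in 5 lists, and the iNSC lists added a second at chr5:136010014-136010356 that no SSC list held. Dtx4 had 1705, 1705 and 1867 covered bases in iNSC lists and 946, 1843 and 1026 in SSC lists, which overlap (exact permutation p = 0.3). Its peak near the gene start, chr19:12501007-12501996, was in all 6 lists, and a peak of 715 bases, chr19:12491836-12492550, was in the iNSC lists alone, at percentiles 72.75, 90.92 and 91.77. Dtx1 had 763, 712 and 0 covered bases in the SSC lists and Dtx3 had 197 in SSC list 1, and neither had a peak in an iNSC list.

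Of the target genes, which encode transcriptional repressors of the Hes and Hey families and the feedback inhibitor Nrarp, Hey1 was the only one with a peak in an iNSC list. Hey1 (chr3:8663359-8667038, - strand) had 790, 701 and 697 covered bases in iNSC lists and 615, 714 and 704 in SSC lists. The groups overlapped (exact permutation p = 0.6), with 1 peak per list inside chr3:8664275-8665064, at percentiles 11.04, 37.04 and 34.48 in iNSC lists and 42.22, 57.13 and 42.99 in SSC lists. The scores overlapped, with 76.91, 235.15 and 194.37 in iNSC lists and 128.34, 284.04 and 138.81 in SSC lists. Hes1 had 925 covered bases in SSC list 1, Hey2 had 545 in SSC list 1, Heyl had 229 and 912 in SSC lists 1 and 3, and Nrarp had 2415 in SSC list 3. None of these 4 had a peak in an iNSC list, none had one in all 3 SSC lists, and Hes5 had no peak at all. In all, 13 of the 33 genes had peaks in SSC lists alone, in 1 or more of them, which is 39.4% against a background of 40.0%, and 0 in iNSC lists alone, against 5.17%.

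By position, 104 separate regions of peaks were found in the 37 genes, and 48 of them, 46.2%, were in 1 list only, beside 46.3% over all genes. Regions in the 3 iNSC lists and no SSC list numbered 5, in Notch3, Maml2, Maml3, Dtx2 and Dtx4, which is 4.81% against a background of 3.43%. Regions in the 3 SSC lists and no iNSC list numbered 4, in Jag1, Numb and Itch, which is 3.85% against 5.59%, and 11 regions in 7 genes, or 10.6%, were in all 6 lists against 10.1%. Peaks were merged by any overlap, so lists in the same region need not cover the same bases. The Rbpj region at the internal transcript start was joined by 1 shared base. In the Maml2 region near the gene end, the peaks of SSC lists 1 and 2 did not overlap. Of the peaks, 39.0% ± 2.69 in iNSC lists and 28.3% ± 9.24 in SSC lists (SD, n = 3 each) touched the last 2000 bases of the gene, beside 26.2% and 18.9% over all genes. The lowest SSC share, 17.6%, was that of list 2, which had no end peak in Notch1, Notch2, Notch3, Ncstn, Rfng or Numbl. The first 500 bases were touched by 7.32% ± 2.61 of Notch peaks in iNSC lists and 10.8% ± 6.23 in SSC lists, beside 11.97% and 11.17% over all genes.

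For 48 further genes of the pathway, among them corepressors, coactivators and glycosyltransferases, 26, 24 and 28 had a peak in the iNSC lists and 32, 27 and 36 in the SSC lists, or 54.17% and 65.97% on average, beside 31.9% and 43.3% of all genes. Of the 42 with a peak in any list, 17, or 40.5%, had one in all 6 lists (background 30.0%), 0 in the 3 iNSC lists alone (background 2.33%) and 3, or 7.14%, in the 3 SSC lists alone (background 11.1%). Those 3 were Aph1c, a gamma-secretase subunit gene with 595, 464 and 751 covered bases in SSC lists, Dlk1, which encodes a non-canonical ligand, with 271, 272 and 272, and the corepressor gene Tle4 with 604, 325 and 1291. Covered bases were higher in every iNSC list for 5 of the 42 (Poglut1, Xxylt1, Neurl3, Spen and Aak1; background 17.9%) and higher in every SSC list for another 5 (Aph1c, Dlk1, Hdac2, Cir1 and Tle4; background 15.3%), which is 11.9% in each direction. Poglut1, which adds glucose to the receptors, had 1724, 1724 and 1724 covered bases in iNSC lists and 26, 0 and 0 in SSC lists. Spen, a corepressor of Rbpj, had 10994, 11831 and 12516 in iNSC lists and 9038, 9640 and 9254 in SSC lists.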

How the data were processed

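The values used here come from 6 peak lists, 1 per IP library, deposited by the authors with a score per peak that has no stated unit, starts at about 50 and is exactly 3100 for many strong peaks. Per the submitters' processing notes, reads were trimmed with cutadapt 1.9.3 and aligned with HISAT2 2.0.4, on build mm9. The peak caller is not given in the sources used here. Peak edges fell on GRCm38.p6 gene edges for 4.9% to 12.0% of peaks, and for 0.00807% to 0.0187% after a shift of 10000 bases, so coordinates are given on GRCm38, 1-based. No depth or interval could be given.

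Gene spans came from the RefSeq table. Gene strand came from its promoter table for 29 members and from the strand of over 90% of a gene's peaks for 8. Covered bases are the union of whole peaks per gene and list, compared with a two-sided exact permutation test and Benjamini-Hochberg adjustment over all genes with a peak, with Python 3.11.15, numpy 2.4.6 and pandas 2.3.3. Peaks overlapping by at least 1 base on 1 strand were merged into regions. The procedure was tested on simulated data. Values in every list are given for genes found in 1 cell type alone, for genes whose groups do not overlap, and for core members. Alternatives were the better-scoring 50% of each list, equal list length, an overlap of 50%, either strand, a width of at least 100 bases, a peak in at least 2 of 3 lists, a block for the replicate number, the removal of each library in turn and, chosen after the data were seen, only the bases inside gene spans. The members and gene lists were chosen with earlier results of these data known.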

Additional observations from a re-analysis of the deposited data

How the results depend on the processing

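The difference in the share of Notch genes with a peak (-8.108 percentage points) turned to 4.505 with the better-scoring 50% of peaks and 10.81 in lists of equal length. In the better-scoring 50%, 3 genes were in the iNSC lists alone (Notch2, Ncstn and Rfng, background 4.59%), 0 in the SSC lists alone (background 9.88%) and 2 in all 6. There, 0 genes had more covered bases in every SSC list, 0 regions were in the SSC lists alone and 1 in all 6. At equal length, 4 genes were in the iNSC lists alone (Notch2, Notch3, Ncstn and Rfng, background 7.13%), 0 in the SSC lists alone (background 6.79%) and 3 in all 6. There, the summed covered bases differed by 21070, 0 genes had more in every SSC list, and 8, 0 and 3 regions were in iNSC lists alone, SSC lists alone and all 6. Both cuts remove the lower-scoring peaks, and more of them from the longer SSC lists at equal length. For either cut, no share over all regions and no summed covered bases over all genes were computed. The region counts and the difference in summed bases therefore show nothing particular to the Notch genes. With a peak in at least 2 of 3 lists required, 5 genes were in SSC lists alone (Dtx1 and Heyl added) and 16 in both groups, with 17 and 20 regions. Shares over all genes and all regions were not computed under this looser rule, so these counts show nothing particular to the Notch genes.

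Leaving out 1 library in turn gave share differences of -15.32 to -3.153, summed covered bases of 8247 to 15060, and 0 to 1 genes in iNSC lists alone (Ncstn without SSC replicate 1, Numbl without SSC replicate 3). It gave 3 to 4 genes in SSC lists alone, 10 to 13 in all remaining lists, 11 to 12 with more covered bases in every iNSC list and 3 to 5 in every SSC list (5 without iNSC replicate 2). Each call then asked only for the lists that remained. These gene counts could therefore stay or rise but not fall, and their lower ends are no check of stability. Regions ranged over 5 to 8 in iNSC lists alone (8 without SSC replicate 1), 4 to 11 in SSC lists alone (8 without SSC replicate 1, 11 without SSC replicate 3) and 11 to 16 in all remaining lists. The matching shares over all genes and all regions were not computed for these removals.

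Replicate numbers did not pair the lists, with correlations of deviations of 0.0152, -0.0165 and 0.0343 between lists of the same number. The replicate block acts only on the covered-base call, so the share difference of -8.108 and the presence and region calls could not change with it. Genes whose groups do not overlap could not lose that call under the block either, and no further gene gained one. The removal of a library could not undo a complete separation of the groups. For genes other than Jag1, counting only bases inside gene spans on the gene strand changed no value. Both cuts, the overlap of 50%, either strand and the minimum width were the alternatives that could undo the call. Over 14 alternatives, counting those that could not fail, Adam17, Maml1, Maml2, Maml3, Notch2, Numbl and Rfng kept groups that do not overlap in each. Ncstn lost this on either strand with whole peaks (not with bases inside the gene span, an alternative chosen after seeing the data that changed no call), Notch3 and Rbpj in the better-scoring 50%, and Dtx2, Jag1, Mib1 and Numb in the better-scoring 50% and at equal length, and the cause was not tested. None of these 14 reversed. Jag1, Mib1 and Numb had 0 covered bases in every iNSC list, so alternatives that only remove peaks or lists could not reverse them. Without read counts and inputs, a missing peak cannot be told from low depth or low expression.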
